A study of Mus musculus with 4 samples.

Results

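Cntn1, Cntn2, Cntn4, Cntn5, Cntnap2 and Cntnap4, 6 genes of the contactin and Cntnap families of neuronal adhesion molecules, were followed in single cells of the embryonic mouse cerebellum. The 6 genes were taken by name from a list and read from their rows among 32286 measured features. All 6 were detected. They were described in 4 droplet libraries of tdTomato-positive cells sorted at E15.5. The En1/2 CKO libraries (replicates 1 and 2) carried En1lox/lox and En2lox/lox beside Ptf1aCre/+ and the reporter R26LSL-tdT/+, and so lose both Engrailed transcription factors where Cre is active. Control libraries (replicates 1 and 2) carried Ptf1aCre/+ and R26LSL-tdT/+ without floxed alleles. Both genotypes are thus heterozygous for the Cre insertion at Ptf1a, the gene whose transcription factor specifies cerebellar GABAergic neurons. Recombination marks and targets only cells with a history of Ptf1a expression. Each library came from pooled cerebella, the number pooled being absent from the labels, and p-values measure the spread between 2 pools of a genotype.

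Contactins are immunoglobulin-superfamily proteins held in the outer membrane by a lipid anchor, and Cntnap (Caspr) proteins are their neurexin-like transmembrane partners. Together they guide and bundle growing axons, and later they build the domains beside the nodes of Ranvier. At juxtaparanodes contactin-2 and Caspr2, the Cntnap2 product, hold voltage-gated potassium channels in place through scaffold and protein 4.1 adaptors. In the developing cerebellum contactin-2 (TAG-1) is best known from axons of newborn granule cells, and contactin-1 (F3) from later axons and from glia-axon contact.

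Cells were grouped into 20 clusters without using any contactin or Cntnap gene, and clusters were named by marker genes. Purkinje-like cells (clusters 7 and 12) numbered 434 and 443 in En1/2 CKO libraries, against 940 and 28 in controls. Interneuron-like cells (clusters 1, 3 and 10) numbered 1067 and 1265 in En1/2 CKO libraries, against 3141 and 220 in controls. Of the 13 Purkinje markers 10 were higher in Purkinje-like than in interneuron-like cells in every library, while Lhx5 and Skor1 were lower in every library. Of the 8 interneuron markers 5 were higher in interneuron-like cells in every library, the exceptions being Pax8, Pax5 and Gad2. Foxp2, a Purkinje transcription factor, stood at 790 and 641 CPM (UMI counts scaled to the summed depth of the cells) in En1/2 CKO and 679 and 1638 CPM in control Purkinje-like cells. In interneuron-like cells Foxp2 lay between 111 and 162 CPM, while Pax2, which marks new interneurons, lay between 533 and 810 CPM there and between 64.5 and 127 CPM in Purkinje-like cells. Libraries held 20724086 and 21021428 UMIs in En1/2 CKO, against 15470932 and 5305154 in controls. The second control library stood apart. Of its barcodes 25.5% passed the filter on genes and mitochondrial share, against 63.9% to 94.6% in the others, and its Purkinje-like cells gave 77556 UMIs, so that 3 counts there amount to 38.7 CPM. The first control library stood apart in Malat1, a nuclear RNA, at 84964 CPM against 31391 to 33649 CPM in the others. Classes were also made up differently: cluster 10, interneuron-like cells led by Nanos1, Neurod1 and Pax2, held 40.02% and 26.7% of that class in En1/2 CKO libraries, against 2.48% and 52.7% in controls. Library pairs shared 10 to 32 cell barcodes. Skor2, another Purkinje marker, lay between 0 and 16.3 CPM in Purkinje-like cells. Erythroid markers summed to 3053 and 991 CPM in En1/2 CKO Purkinje-like cells, against 1268 and 25.8 CPM in controls, and microglial markers to 8.27 and 10.1 CPM in En1/2 CKO, against 24.4 and 0 CPM in control libraries; their part in the results was not tested. The targeted En2 stood at 36.0 and 24.3 CPM in En1/2 CKO interneuron-like cells, against 128 and 106 CPM in controls. In Purkinje-like cells En2 was at 86.2 and 39.3 CPM in En1/2 CKO and 115 and 51.6 CPM in control libraries. En1 was at 126 and 129 CPM in En1/2 CKO and 132 and 256 CPM in control interneuron-like cells, but 3' tags can lie outside the deleted part and then check nothing.

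The 6 genes fell into 3 patterns across cell types. Among the clusters compared, Cntn5, Cntn4 and Cntnap4 were highest in Purkinje-like cluster 12 and Cntn2 in interneuron-like clusters. Cntn1 was highest outside neurons, in astroglia-like and radial progenitor-like cells. Cntn4 did not clearly differ between the Purkinje-like clusters, as given below. Cntnap2 was highest in Purkinje-like cells and also present in glial and progenitor clusters. The highest levels of Cntn1 thus lay outside neurons. The comparison of levels across clusters is a description without a test, since the clusters come from the same cells. It covers the 15 clusters with at least 20 cells in every library, which leaves out Purkinje-like cluster 7 (8 cells in control replicate 2).

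**Figure D1:**
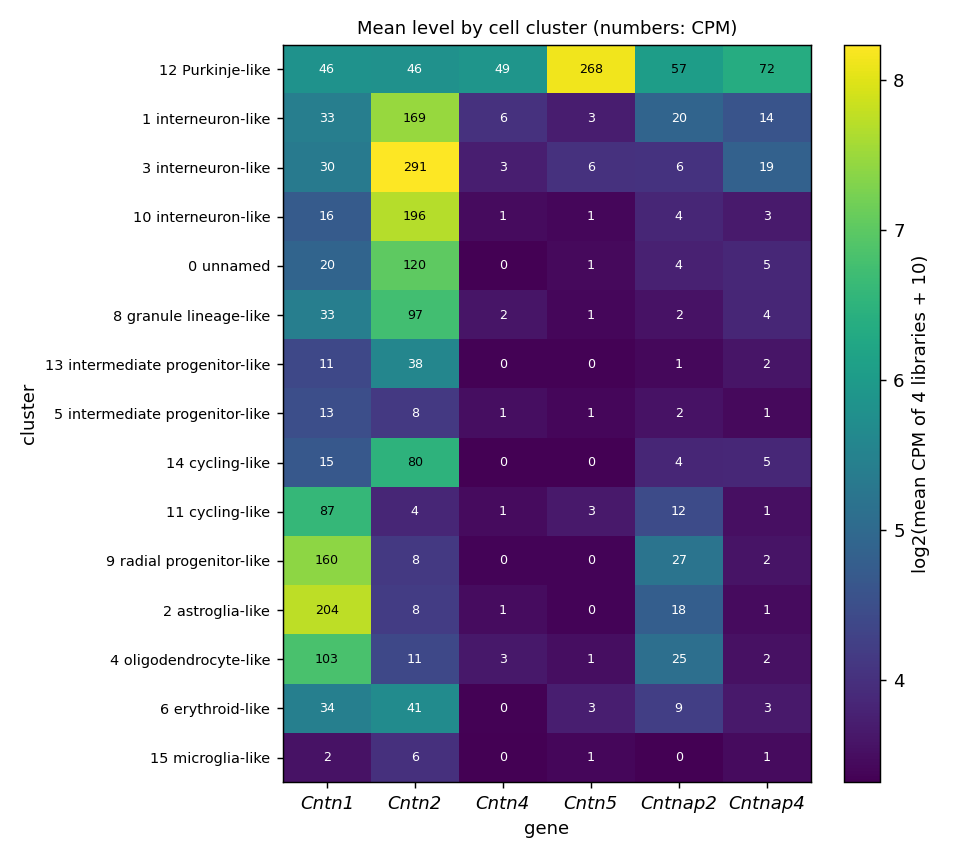
Mean level of each gene (columns) in each of 15 cell clusters (rows); numbers are CPM averaged over the 4 libraries and colour is log2(mean CPM + 10). Cntn5 stands out in Purkinje-like cluster 12, Cntn2 in the interneuron-like clusters 3, 10 and 1, and Cntn1 in the astroglia-like and radial progenitor-like clusters.

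Cntn5 (contactin-5, NB-2), a contactin known from auditory and other sensory circuits, spans chr9:9660891-10904775 on the minus strand (GRCm38, GENCODE vM21). In Purkinje-like cluster 12 it stood at 288 and 298 CPM in En1/2 CKO libraries, against 365 and 123 CPM in controls. In Purkinje-like cluster 7 it stood at 23.5 and 33.8 CPM in En1/2 CKO libraries, against 19.2 and 0 CPM in controls. Cluster 12 led with Snhg11, Fgf3, Nefl and Nefm, the last 2 being neurofilament genes of growing axons, and cluster 7 with Nrgn, Foxp2 and Nrp2. Within a library the level in cluster 12 over cluster 7 was 12.3-fold and 8.81-fold in En1/2 CKO and 18.9-fold in control replicate 1. Control replicate 2 had 7 and 0 UMIs in these clusters and gave no usable ratio. Every other cluster of the 15 had a mean of at most 6.33 CPM, and the range of cluster 12 (123 to 365 CPM) lay apart from that of the next cluster (0 to 14.1 CPM). Read as cells, after thinning each cell to 1000 UMIs, a Cntn5 UMI was found in 26.5% and 23.7% of En1/2 CKO cells of cluster 12 (98 and 152 cells), against 28.1% and 5.56% of control cells (320 and 18 cells). Unthinned, the shares were 31.5% and 38.7% in En1/2 CKO and 35.3% in control replicate 1, with 4 of 20 cells in control replicate 2. In cluster 7 the thinned shares were 2.48% and 3.01% in En1/2 CKO and 1.49% in control replicate 1. In microglia-like cluster 15, whose cells should lack the gene, no thinned cell of any library held one, at median depths of 3444 to 5604 UMIs against 1176 to 2963 UMIs in cluster 12. Outside control replicate 2, where 1 thinned cell held a Cntn5 UMI, the share in cluster 12 was thus above the free-RNA background, and the Purkinje-like clusters differed in Cntn5. Over both clusters the level in Purkinje-like cells was 29.3-fold and 52.6-fold that of interneuron-like cells in En1/2 CKO libraries, against 68.6-fold in control replicate 1 and at least 15.3-fold, with the floor of 3 counts for a library at 0, in control replicate 2. As an annotated antisense gene (Gm32710) overlaps Cntn5 and the use of strand in counting is not given in the sources used here, reads of both genes cannot be told apart.

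Cntn4 (contactin-4, BIG-2), known in the mouse from olfactory axon guidance, spans chr6:105677660-106699310 on the plus strand. It followed Cntn5 across the 15 clusters, with a Pearson correlation of 0.97 on the log2(CPM + 10) scale. The points share libraries and depth, and no p is given. Both genes were low in every cluster of the 15 except cluster 12, so the correlation rests largely on that cluster. Cluster 7 is not among the 15. Its level in Purkinje-like cluster 12 was 72.0 and 30.2 CPM in En1/2 CKO libraries, against 42.1 and 52.5 CPM in controls. All other clusters of the 15 had means of at most 6.36 CPM, and the ranges did not meet. In cluster 7 Cntn4 stood at 25.1 and 33.8 CPM in En1/2 CKO, against 8.98 CPM in control replicate 1 and 49.0 CPM, which is 1 UMI, in control replicate 2. The Purkinje-like clusters were not clearly apart in Cntn4: the ratio of cluster 12 to cluster 7 was 2.86 and 0.893 in En1/2 CKO and 4.68 in control replicate 1. Purkinje-like over interneuron-like cells, the ratio was 16.1 and 13.2 in En1/2 CKO libraries and 5.30 and 13.1 in controls. Few counts stood behind these ratios: 4 against 2 UMIs in control replicate 2, and 7 and 6 UMIs in En1/2 CKO interneuron-like cells.

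The sequences upstream of both genes and of Cntn2 are shown because these 3 genes mark the Purkinje-like and interneuron-like sides of the family; they are the first RefSeq start listed for each gene, 250 bases, 5' to 3' on the gene's strand (GRCm38.p6), with the E-box CAGCTG in capitals where present. Ptf1a is a basic helix-loop-helix factor, a type that binds E-boxes (CANNTG), and Engrailed proteins are homeodomain factors, a type that binds TAATTA-like sites.
Cntn2, chr1:132542941-132543190, minus strand: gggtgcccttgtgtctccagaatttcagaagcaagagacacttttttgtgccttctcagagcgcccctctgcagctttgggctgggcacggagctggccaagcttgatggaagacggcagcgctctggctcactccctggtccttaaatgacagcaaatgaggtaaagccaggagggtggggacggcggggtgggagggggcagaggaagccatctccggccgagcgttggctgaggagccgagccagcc
Cntn4, chr6:106118515-106118764, plus strand: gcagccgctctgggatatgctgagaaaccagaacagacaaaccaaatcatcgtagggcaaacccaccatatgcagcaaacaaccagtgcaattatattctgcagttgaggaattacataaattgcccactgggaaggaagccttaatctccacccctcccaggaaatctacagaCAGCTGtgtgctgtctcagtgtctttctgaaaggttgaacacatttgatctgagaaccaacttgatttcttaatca
Cntn5, chr9:10904776-10905025, minus strand: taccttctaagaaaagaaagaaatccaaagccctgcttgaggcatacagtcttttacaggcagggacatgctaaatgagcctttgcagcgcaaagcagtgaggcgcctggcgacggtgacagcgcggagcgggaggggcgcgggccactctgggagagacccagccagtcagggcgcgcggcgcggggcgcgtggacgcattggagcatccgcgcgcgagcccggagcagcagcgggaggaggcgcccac
The Cntn4 window held 1 CAGCTG, letters found in 4271 of 32851 promoter windows of this length, and 4 CANNTG in all, of which the CAGCTG is 1. The Cntn2 window held 1 CANNTG and the Cntn5 window shown none, where 66.2% of windows hold at least 1; the window of Cntn5's other listed start, which overlaps the one shown, held 3. Both listed starts of Cntn4 lie inside its GENCODE gene record, and the Cntn2 window shown lies inside the record of Cntn2. None of the 3 held TAATTA, found in 4.84% of windows; the window of Cntn4's other listed start held 1, and no CAGCTG. Both strands were searched. A match is a description and not a bound site, and 5 of the 6 genes had entries, the exception being Cntnap4.

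Cntnap4 (Caspr4), a Cntnap protein known from GABAergic and dopaminergic synapses in mice, spans chr8:112570043-112882717 on the plus strand. It shared the Purkinje-like pattern, with a correlation of 0.92 with Cntn4 and 0.90 with Cntn5 over the 15 clusters. These correlations too rest largely on cluster 12. In cluster 12 it stood at 112 and 79.8 CPM in En1/2 CKO libraries, against 61.4 and 35.0 CPM in controls. Here both En1/2 CKO libraries lay above both controls, but control replicate 2 contributed 2 UMIs and 15.6% of genes tested lay so. Interneuron-like clusters 3 and 1 came next, with means of 18.8 and 14.3 CPM, and the range of cluster 12 (35.0 to 112 CPM) lay apart from that of cluster 3 (11.3 to 27.9 CPM). In cluster 7 it was at 35.2 and 36.9 CPM in En1/2 CKO libraries, against 38.5 and 0 CPM in controls. Gm45904 overlaps it on the opposite strand, with the same limit as for Cntn5.

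Cntnap2 (Caspr2), the juxtaparanodal partner of contactin-2, has the longest gene of the 6, 2245 kb at chr6:45059357-47304213 on the plus strand. In cluster 12 it stood at 92.0 and 71.2 CPM in En1/2 CKO libraries, against 45.6 and 17.5 CPM in controls, the last from 1 UMI. Its order then ran through radial progenitor-like (26.9 CPM), oligodendrocyte lineage-like (24.8 CPM), interneuron-like cluster 1 (19.9 CPM) and astroglia-like cells (17.6 CPM). Each of these neighbours overlapped the next over the libraries, cluster 12 included, so their order is not set beyond the spread. Across clusters Cntnap2 correlated with Cntn1 at 0.72, with Cntn4 at 0.69, with Cntn5 at 0.64, with Cntnap4 at 0.56 and with its binding partner Cntn2 at -0.16. Both members of that pair were present in Purkinje-like cluster 12, with means of 46.0 CPM for Cntn2 and 56.55 CPM for Cntnap2. Both were also present in interneuron-like cluster 1. Cntn2 stood there at 212 and 252 CPM in En1/2 CKO libraries and 154 and 57.9 CPM in controls. Cntnap2 stood there at 21.0 and 17.5 CPM in En1/2 CKO libraries and 26.7 and 14.5 CPM in controls, the last from 2 UMIs.

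Cntn2 (contactin-2, TAG-1) spans chr1:132509427-132543256 on the minus strand. Interneuron-like clusters 3, 10 and 1 had the highest means, 291, 196 and 169 CPM, followed by unnamed cluster 0 (120 CPM), a large group of cells led by Ebf1, and by granule lineage-like cells (97.1 CPM). The ranges of neighbours in this order overlapped. Purkinje-like cluster 12 had a mean of 46.0 CPM. In cluster 7 Cntn2 was at 127 and 117 CPM in En1/2 CKO libraries and 80.8 and 49.0 CPM in controls, the last from 1 UMI. In each of the 4 libraries Cntn2 was lower in Purkinje-like than in interneuron-like cells, at 0.434 and 0.209 times in En1/2 CKO and 0.395 and 0.546 times in control libraries. The last ratio rested on 3 against 36 UMIs. Astroglia-like, radial progenitor-like and intermediate progenitor-like (cluster 5) cells had means of 8.31, 7.56 and 7.61 CPM. Cluster 13, intermediate progenitor-like cells led by Neurog1, had a mean of 37.9 CPM.

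Cntn1 (contactin-1, F3), the paranodal contactin, spans chr15:92051165-92341967 on the plus strand. In astroglia-like cells it stood at 231 and 199 CPM in En1/2 CKO libraries and 199 and 185 CPM in controls. Radial progenitor-like cells had 143 and 125 CPM in En1/2 CKO libraries and 160 and 210 CPM in controls. Oligodendrocyte lineage-like cells came next at 87.4 to 116 CPM, apart from radial progenitor-like cells. Choroid plexus-like cells, found only in the En1/2 CKO libraries (68 in each), stood at 331 and 251 CPM. Among neurons the level was low and the ranges overlapped: Purkinje-like cells had 22.4 and 26.6 CPM in En1/2 CKO and 23.0 and 38.7 CPM in control libraries, and interneuron-like cells had 26.7 and 20.7 CPM in En1/2 CKO and 20.5 and 27.5 CPM in control libraries. Within Purkinje-like cells cluster 12 exceeded cluster 7 in Cntn1 as well, 5.17-fold and 4.21-fold in En1/2 CKO and 4.68-fold in control replicate 1. These ratios rested on 13 against 6, 18 against 3 and 24 against 7 UMIs. Control replicate 2 had 3 and 0 UMIs and gave no ratio, and in cluster 7 Cntn1 did not pass the filter on low counts. Microglia-like cluster 15 was at or near 0 for all 6 genes, the highest value being 18.5 CPM for Cntn2 in En1/2 CKO replicate 2.

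The genes whose pattern across the 15 clusters was most like each member were looked up among 7235 genes, as a description. For Cntn5, Cntn4 and Cntnap4, which were low outside cluster 12, the likeness rests largely on that cluster. Cntn5 was closest to Fgf3 (0.98), a growth factor gene, followed by Vstm2l and Pfkp. Pfkp, encoding a phosphofructokinase, and Vstm2l were also the closest to Cntn4 (both 0.96), and Pfkp, Snhg11 and L1cam (0.95, 0.95 and 0.94) to Cntnap4. L1cam encodes an axonal adhesion molecule that binds contactins. Cntnap2 was closest to Chl1 (0.96), another L1-family gene, then to Csdc2 (0.91). For Cntn2 the closest were Ank3 (0.95), encoding the ankyrin of the axon initial segment, and the transcription factor genes Uncx (0.94) and Bhlhe22 (0.93). For Cntn1 they were Bcl2, Adgrb2 and Hs3st1 (all 0.94).

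**Figure D2:**
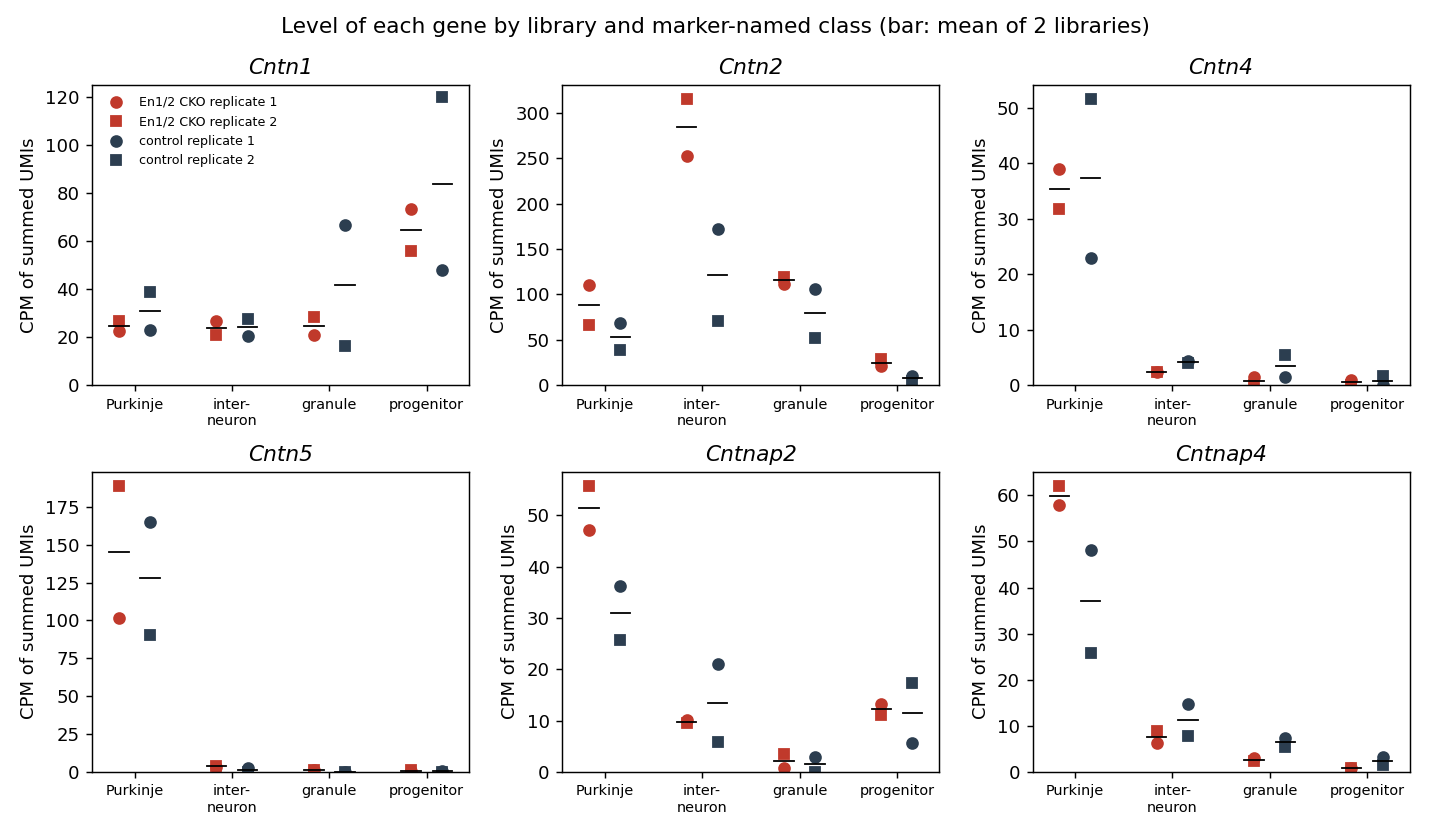
Level of each gene in CPM (vertical axis) by class (horizontal axis), 1 point per library, En1/2 CKO left of control and a bar at the mean of 2 libraries. Cntn2 in interneuron-like cells stands at 253 and 315 CPM in En1/2 CKO libraries, above both controls at 173 and 70.8 CPM, while most other pairs of groups overlap or rest on few UMIs.

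Genotypes were then compared within classes, to ask whether the 6 genes differed between En1/2 CKO and control libraries. Whether the granule lineage-like cells had lost Engrailed factors was not tested, so differences there are not read as effects of that loss. No member passed the threshold in any class: 0 of 6 tested in Purkinje-like, 0 of 5 in interneuron-like, 0 of 3 in progenitor-like and 0 of 2 in granule lineage-like cells (edgeR quasi-likelihood test, Benjamini-Hochberg adjustment, 2 against 2 libraries). The background was 0.0222% of 8993 genes called in Purkinje-like cells and 0% of 10790, 11190 and 8435 genes in the other classes, so that the members' count says little about them. DESeq2 called no member, beside 0.0123%, 0.0114%, 0.0112% and 0.00635% of all genes in these classes (2, 2, 2 and 1 genes). At an unadjusted p under 0.05, Cntn2 was the 1 member in interneuron-like cells, where 4.02% of all genes passed, and the 1 member among progenitor-like cells, where 7.12% did. No member did so in Purkinje-like or granule lineage-like cells, where 2.98% and 4.72% of genes did. The median log2 fold change of the members that passed the filter on low counts was 0.43 in Purkinje-like and -0.80 in interneuron-like cells, beside -0.00 and -0.04 over all genes tested.

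Of the members tested, Cntn2 had the largest fitted differences in interneuron-like and progenitor-like cells. In interneuron-like cells it stood at 253 and 315 CPM in En1/2 CKO libraries, against 173 and 70.8 CPM in controls, with both En1/2 CKO libraries above both controls, as for 18.6% of genes tested. Means were 284 ± 44.1 CPM in En1/2 CKO and 122 ± 72.0 CPM in control libraries (SD, n = 2 each). The log2 fold change was 1.15 (SE 0.39), and edgeR's adjusted p was 0.990, so the difference did not pass the test. With control replicate 1 left out it was 1.91 (adjusted p 8.06e-07), and with control replicate 2 left out it was 0.73 (adjusted p 2.34e-05). Those fits take the spread from the En1/2 CKO libraries alone, whose common biological coefficient of variation was 0.0830, against 0.331 and 0.333 in the fits where the controls alone set it. Without En1/2 CKO replicate 1 the value was 1.33 (adjusted p 1.00). Read as cells at 1000 UMIs, 21.7% and 27.1% of En1/2 CKO interneuron-like cells held a Cntn2 UMI, against 374 of 2493 control cells in replicate 1 and 7.61% in replicate 2. In microglia-like cells the share was at most 1.48% in any library. The exact 95% intervals, which cover counting error only, were 18.9% to 24.8% and 24.0% to 30.4% in En1/2 CKO, against 13.6% to 16.5% and 4.32% to 12.2% in control libraries. Thinning left out 284 and 490 shallower En1/2 CKO cells and 648 and 23 control cells; unthinned shares were 39.7% and 38.9% in En1/2 CKO and 18.9% and 15.45% in control libraries, at median depths of 1643 and 1110 UMIs in En1/2 CKO and 1218 and 2348 UMIs in control cells. By CPM within clusters, in cluster 3 Cntn2 stood at 368 and 563 CPM in En1/2 CKO libraries and 206 and 27.9 CPM in controls, the last from 2 UMIs. In cluster 10 it stood at 245 and 257 CPM in En1/2 CKO libraries and 195 and 87.1 CPM in controls. As thinned shares of cells the groups overlapped in cluster 10, at 20.7% and 23.9% in En1/2 CKO libraries, against 24.7% and 10.3% in controls, and did not overlap in cluster 3, at 33.8% and 39.8% in En1/2 CKO libraries, against 16.3% and 0% (0 of 26 cells, which allows up to 11.5%) in controls. Both En1/2 CKO libraries exceeded both controls in 6 of 15 clusters (0, 1, 3, 8, 10 and 13), lay below them in 1 (oligodendrocyte lineage-like cluster 4) and overlapped in 8. Of all genes tested, 19.1%, 17.4%, 19.6%, 18.3% and 21.1% lay above in this sense in clusters 0, 1, 3, 8 and 10. The log2 fold change by cluster, a comparison added after the data were seen, was 1.31 (SE 0.31) in cluster 0, 0.89 (SE 0.38) in cluster 1, 1.54 (SE 0.45) in cluster 3 and 0.89 (SE 0.32) in cluster 10, none with an edgeR adjusted p under 0.697. In Purkinje-like cells it was 0.47 (SE 0.38, adjusted p 1.00), with 0.64 in cluster 7 and -0.10 in cluster 12.

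**Figure D3:**
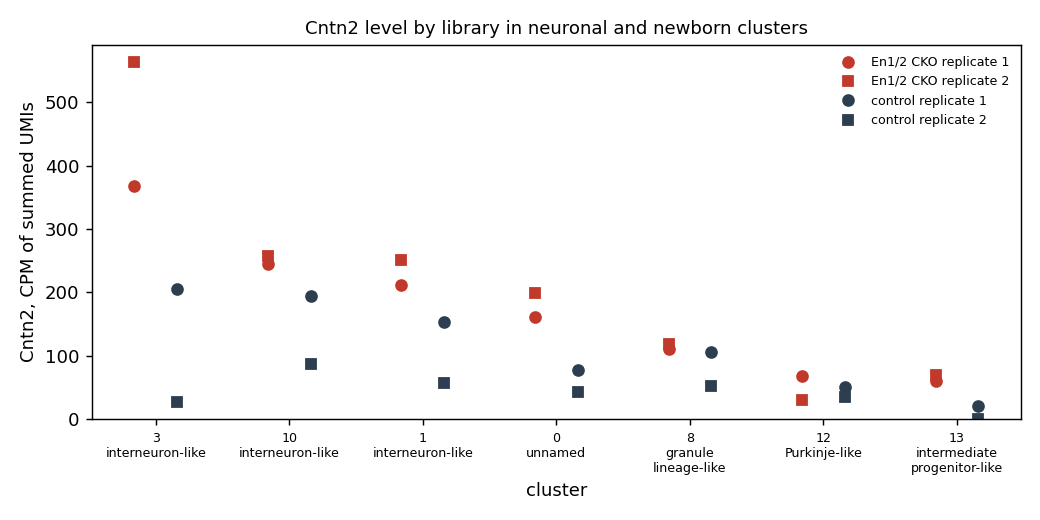
Cntn2 level in CPM (vertical axis) in 7 clusters (horizontal axis), 1 point per library, En1/2 CKO left of control. The clusters shown include all 6 of the 15 compared in which both En1/2 CKO points lie above both control points. In the other cluster shown, Purkinje-like cluster 12, the groups overlap. Over the 15 clusters both En1/2 CKO libraries lie below both controls in 1, and the groups overlap in 8.

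Values that moved with Cntn2 are given here; their part in the result was not tested. The granule lineage markers, 7 of 7 detected in interneuron-like cells, summed to 2362 and 2047 CPM there in En1/2 CKO libraries, against 1625 and 1886 CPM in controls. The defining granule markers Atoh1 and Barhl1 were low, at 3.12 and 1.99 CPM for Atoh1 in En1/2 CKO libraries and 10.6 and 15.7 CPM in controls, and the sum was carried by Neurod2 and Neurod1. Choroid plexus markers, 5 of 6 detected and Clic6 at 0, summed to 57.8 and 32.7 CPM in En1/2 CKO interneuron-like cells, against 9.39 and 3.93 CPM in controls. The median mitochondrial share was 6.44% and 6.93% in En1/2 CKO cells of cluster 3, against 3.29% and 4.99% in controls, and likewise higher in clusters 0 and 1. In cluster 10 it was 2.38% and 2.47% in En1/2 CKO libraries, against 2.64% and 5.30% in controls. Cntn2 lies on chromosome 1, 11.9 Mb from En1, whose floxed allele only the En1/2 CKO embryos carry, so that loss of the protein and a linked DNA difference cannot be told apart. Nfasc, an L1-family gene at nearly the same distance from En1, stood at 151 and 170 CPM in En1/2 CKO interneuron-like cells, against 210 and 72.8 CPM in controls (log2 fold change 0.11, SE 0.42).

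In progenitor-like cells (clusters 5, 9 and 13) Cntn2 stood at 20.7 and 29.0 CPM in En1/2 CKO libraries, against 10.4 and 4.73 CPM in controls, the last from 3 UMIs. Groups did not overlap, as for 20.3% of genes in that direction. Microglia-like cluster 15, whose cells should lack the gene, reached 18.5 CPM of Cntn2 in En1/2 CKO replicate 2. The part of free RNA in the progenitor-like values was not tested. The log2 fold change was 1.55 (SE 0.42, edgeR adjusted p 0.699). Without the filter on low counts the same test called it (1.60, adjusted p 0.0207), and it did so without control replicate 1 (2.30, adjusted p 0.00424) or control replicate 2 (1.26, adjusted p 0.00937). When contactin and Cntnap genes were allowed in the clustering, the log2 fold change was -0.01, and with doublets kept it was 0.08. In both settings the cluster led by Neurog1, as cluster 13 is in the main clustering, was unnamed and so outside the class. The cells compared thus differed from those of the main fit, and the part of this in the values was not tested. Cluster 13, in which Cntn2 was at 60.8 and 70.3 CPM in En1/2 CKO and 20.5 and 0 CPM in control libraries, held 25.7% and 28.6% of the class in En1/2 CKO libraries, against 9.99% and 11.9% in controls. In cluster 5 the groups overlapped, at 6.82 and 11.2 CPM in En1/2 CKO and 7.54 and 4.90 CPM in control libraries. In granule lineage-like cells Cntn2 stood at 112 and 119 CPM in En1/2 CKO libraries, against 106 and 51.8 CPM in controls (log2 fold change 0.50, SE 0.32, edgeR adjusted p 0.904). It passed the test there without control replicate 1 (1.01, adjusted p 0.0418).

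**Figure D4:**
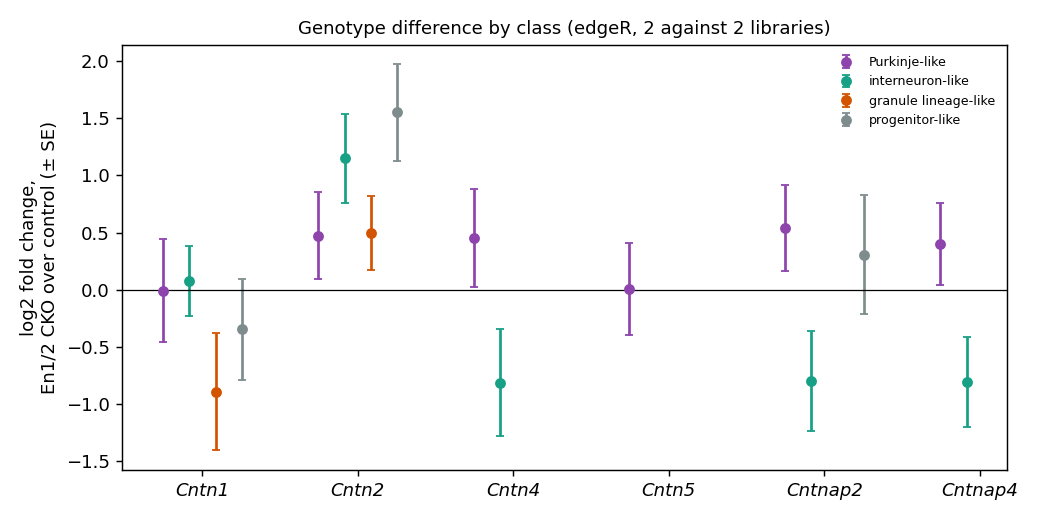
Log2 fold change, En1/2 CKO over control (vertical axis, bars ± SE from edgeR), for each gene (horizontal axis) in 4 classes; pairs of gene and class that did not pass the filter on low counts have no point. Cntn2 lies above 0 in all 4 classes, and Cntn4, Cntnap2 and Cntnap4 lie above 0 in Purkinje-like and below 0 in interneuron-like cells, with none past the threshold. Leaving out 1 library could reverse the sign of Cntn4 in Purkinje-like cells (-0.48 to 0.61) and of Cntnap2 in interneuron-like cells (-1.07 to 0.64).

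Cntn5 and Cntn4 did not separate the genotypes in Purkinje-like cells. Cntn5 in Purkinje-like cells stood at 102 and 189 CPM in En1/2 CKO libraries, against 165 and 90.3 CPM in controls, and the groups overlapped (log2 fold change 0.01, SE 0.40, edgeR adjusted p 1.00). Cluster 12, where Cntn5 was high, made up 32.9% and 47.9% of the class in En1/2 CKO and 41.9% and 71.4% in control libraries. Within cluster 12 the log2 fold change was 0.08 (SE 0.47), and over the class it was -1.02 under a stricter cell filter. Cntn4 stood at 39.0 and 31.7 CPM in En1/2 CKO libraries, against 23.0 and 51.6 CPM in controls, again overlapping (0.45, SE 0.43). Cntn1 differed by -0.01 (SE 0.45) in Purkinje-like and 0.07 (SE 0.31) in interneuron-like cells. In granule lineage-like cells Cntn1 was at 21.0 and 28.4 CPM in En1/2 CKO libraries, against 66.8 and 16.4 CPM in controls, and its log2 fold change of -0.89 (SE 0.51) turned to 0.42 without control replicate 1 and reached -1.37 (edgeR adjusted p 0.000423) without control replicate 2. In progenitor-like cells it was -0.35 (SE 0.44), but -0.93 (adjusted p 0.000206) without control replicate 1 and 0.48 without control replicate 2. The groups overlapped there, at 73.4 and 55.9 CPM in En1/2 CKO and 47.9 and 120 CPM in control libraries, and so the sign rested on which control was kept.

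Cntnap2 and Cntnap4 had fitted differences of opposite sign in Purkinje-like and interneuron-like cells, none past the threshold. In Purkinje-like cells Cntnap2 stood at 47.2 and 55.8 CPM in En1/2 CKO libraries, against 36.3 and 25.8 CPM in controls (log2 fold change 0.54, SE 0.38, edgeR adjusted p 1.00). Cntnap4 stood there at 57.9 and 62.1 CPM in En1/2 CKO libraries, against 48.2 and 25.8 CPM in controls (0.40, SE 0.36, adjusted p 1.00). Both genes had both En1/2 CKO libraries above both controls, as did 16.7% of genes tested, and both had 2 UMIs in control replicate 2. By cluster, in fits added after the data were seen, the values in cluster 12 were 0.93 (SE 0.50) for Cntnap2 and 0.72 (SE 0.49) for Cntnap4, and neither was called, where 0.0465% of genes were. In cluster 7 they were 0.02 for Cntnap2 and -0.05 for Cntnap4. Over the class Cntnap4 turned to -0.61 under a stricter cell filter and -0.40 in cells of 2000 or more UMIs. In interneuron-like cells Cntnap2 stood at 10.0 and 9.57 CPM in En1/2 CKO libraries, against 20.9 and 5.90 CPM in controls (-0.80, SE 0.44, adjusted p 0.990). Cntnap4 stood there at 6.23 and 8.77 CPM in En1/2 CKO libraries, against 14.7 and 7.87 CPM in controls (-0.81, SE 0.39, adjusted p 0.990). The groups overlapped for both genes in this class. Without control replicate 2 both passed the test (-1.07, adjusted p 0.00377 for Cntnap2 and -0.96, adjusted p 0.0381 for Cntnap4), and without control replicate 1 the Cntnap2 value was 0.64. Interneuron-like Cntn4, at 2.42 and 2.39 CPM in En1/2 CKO libraries and 4.33 and 3.93 CPM in controls, lay lower without overlap, as did 14.1% of genes, and rested on 2 to 18 UMIs a library (-0.81, SE 0.47, adjusted p 0.990). Cntn5 had 10 and 9 UMIs there in En1/2 CKO libraries, against 10 and 0 UMIs in controls, and was not tested.

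Whether the En1/2 CKO effect differed between the classes was tested as an interaction (blocked by library), Purkinje-like minus interneuron-like. No member passed, with 0.355% of 10134 genes called, and 2 members had an unadjusted p under 0.05 where 6.24% of genes did. The difference of log2 fold changes was 1.4997 for Cntnap2 (SE 0.43, edgeR adjusted p 0.105), 1.27 for Cntnap4 (SE 0.44, adjusted p 0.316) and 1.27 for Cntn4 (SE 0.73, adjusted p 0.892). For Cntn2 it was -0.39 (SE 0.30), for Cntn5 -0.87 (SE 0.61) and for Cntn1 -0.17 (SE 0.46). Cntnap2 passed when clusters were made at a finer resolution (2.06, adjusted p 0.0362) and without control replicate 2 (1.52, adjusted p 0.0159), and it was 0.53 without control replicate 1.

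Of the 7 other genes of the families, Cntn3, Cntn6, Cntnap1, Cntnap3, Cntnap5a, Cntnap5b and Cntnap5c, 2 passed the filter on low counts in Purkinje-like cells and 1 in interneuron-like cells. Cntnap5a, a Caspr5 gene, stood at 52.0 and 78.6 CPM in En1/2 CKO Purkinje-like cells, against 253 and 258 CPM in controls. Groups did not overlap, as for 13.2% of genes in that direction, and the test missed the threshold (log2 fold change -1.96, SE 0.35, edgeR adjusted p 0.206). In cluster 7 alone, a fit added after the data were seen, it fell by 1.85 on the log2 scale (SE 0.38, adjusted p 0.00376), where 0.319% of genes were called. This rested on 8 control cells of replicate 2, and the adjusted p was 0.0534 without control replicate 1 and 1.00 without either En1/2 CKO library. In cluster 12 it stood at 112 and 110 CPM in En1/2 CKO libraries, against 463 and 245 CPM in controls. In interneuron-like cells Cntnap5a stood at 27.0 and 27.1 CPM in En1/2 CKO libraries, against 94.3 and 35.4 CPM in controls (-1.40, SE 0.40, adjusted p 0.990). By cluster its values there were -0.83 in cluster 1, -0.93 in cluster 3 and -0.86 in cluster 10, and -1.13 in unnamed cluster 0, none past the threshold. Cntnap5a lies 4.02 Mb from En1, with the same limit from linkage as for Cntn2. Cntn6 (contactin-6, NB-3), known from granule cells, stood in Purkinje-like cells at 16.5 and 8.87 CPM in En1/2 CKO libraries, against 4.44 and 12.9 CPM in controls (1.31, SE 0.71).

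The partner list held 24 genes whose products bind contactins or Cntnap proteins or work with them. In Purkinje-like cells 22 were tested, 16 with higher and 6 with lower fitted values in En1/2 CKO, and none passed the threshold; the median log2 fold change was 0.17. Over all genes 4484 were higher and 4509 lower there. In interneuron-like cells 20 were tested, 10 each way, none passed, and the median was -0.06. Over all genes 4932 were higher and 5858 lower there, 0% were called, and the median was -0.04. At an unadjusted p under 0.05 stood 1 partner in each of these classes, where 2.98% and 4.02% of all genes did. In granule lineage-like cells all 15 tested had lower fitted values in En1/2 CKO, as had 4648 of 8435 genes, with a median of -0.25 beside -0.06 over all genes, and none passed or had an unadjusted p under 0.05. By role, the L1-family ligand Nrcam stood at 339 and 300 CPM in En1/2 CKO Purkinje-like cells, against 190 and 219 CPM in controls, without overlap (0.68, SE 0.34, edgeR adjusted p 1.00). Chl1 stood there at 314 and 378 CPM in En1/2 CKO libraries, against 280 and 168 CPM in controls (0.53, SE 0.36). Among receptor phosphatases Ptprz1, which binds contactin-1, was at 80.3 and 82.4 CPM in En1/2 CKO and 68.2 and 103 CPM in control Purkinje-like cells. Among adaptors Ank2 was at 410 and 405 CPM in En1/2 CKO libraries, against 376 and 361 CPM in controls, a difference of 0.15 (SE 0.33). Of the Kv1 channels that contactin-2 and Caspr2 cluster later in life, Kcna2 was at 8.27 and 17.7 CPM in En1/2 CKO and 9.63 and 38.7 CPM in control Purkinje-like cells. The last value rested on 3 UMIs. Kcna2 and Kcna4, the channel genes tested there, both had higher fitted values in En1/2 CKO (median log2 fold change 0.42), neither past the threshold. In interneuron-like cells Kcna2 was at 40.9 and 56.2 CPM in En1/2 CKO libraries, against 25.03 and 37.4 CPM in controls (0.73, SE 0.33, adjusted p 0.990).

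In the interaction 1 of 22 partners tested passed, where 0.355% of 10134 genes were called. At an unadjusted p under 0.05 (edgeR quasi-likelihood) stood 9 of the 22, where 6.24% of genes did. The partners' median difference was 0.39, with 15 higher and 7 lower. Over all genes the median was 0.02, with 5256 higher and 4878 lower. The list was chosen with earlier results of these data known. The 1 partner called was Chl1, named here for that reason. Its Purkinje-like effect exceeded its interneuron-like effect by 1.22 (SE 0.27, edgeR adjusted p 0.00332). In interneuron-like cells Chl1 stood at 35.7 and 37.9 CPM in En1/2 CKO libraries, against 58.2 and 90.5 CPM in controls (-0.98, SE 0.30, adjusted p 0.990). The call was lost without either En1/2 CKO library (1.51 and 1.33, adjusted p 1.00 in both), with doublets kept (1.07, adjusted p 0.107), under a stricter cell filter (0.90, adjusted p 1.00), in thinned sums (1.95, adjusted p 0.408) and in cells with at least 2000 UMIs (1.77, adjusted p 0.389). Chl1 was also the gene whose levels across clusters were most like those of Cntnap2, as given above. The values of both genes stand side by side and were not tested together.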

How the data were processed

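Single-cell RNA of sorted tdTomato-positive cells was measured in 2 En1/2 CKO and 2 control libraries made with 10x 3' chemistry, each aimed at 10000 viable cells, per the labels' protocols. The authors deposited UMI counts per gene and barcode, and Cell Ranger 6.1.0 and the build mm10 are named per the submitters' processing notes. Whether introns or strand were used is not given in the sources used here. The deposited barcodes numbered 8190 and 11513 in En1/2 CKO and 10991 and 4619 in control libraries.

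Kept were barcodes with 500 or more genes whose mitochondrial share did not exceed 10%. Doublets were called per library with Scrublet; where its automatic threshold was not usable the highest scores were removed at 0.8% per 1000 barcodes, which took 6.55% and 9.22% in En1/2 CKO replicates 1 and 2 and 8.80% in control replicate 1, while the automatic threshold took 0.510% in control replicate 2. This left 4893 and 7300 En1/2 CKO cells and 9487 and 1171 control cells. Cells were clustered in scanpy 1.11.5 (2000 variable genes without En1, En2 and the contactin and Cntnap families, 30 principal components, 15 neighbours, Leiden resolution 1, no integration). A cluster was named where at least 3 markers of a list were raised 1.5-fold or more. Levels are CPM of UMIs summed per library and class. Sums were tested with edgeR 4.0.16 (quasi-likelihood, TMM, filterByExpr, Benjamini-Hochberg over all genes tested, threshold 0.05; R 4.3.3), and DESeq2 1.42.0 was an alternative. The scripts were tested on simulated data. SEs come from the F statistic. For shares of cells, each cell was thinned to 1000 UMIs. Gene positions are from GENCODE vM21 (GRCm38) and upstream sequences from RefSeq.

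The 6 genes, the other family genes and the partner list were chosen with earlier results of these data known. Named were all 6 members, family genes that were tested, and at most 2 partners per role by level, beside those called. In the main fits samples were not treated as paired by replicate number. The deviations of same-numbered libraries correlated at 0.07, -0.26, -0.25 and -0.20 in the 4 classes. As the control libraries also differed in depth and quality, these values cannot decide whether the numbers pair the samples.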

Additional observations from a re-analysis of the deposited data

Results flagged for a closer look

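The En1/2 CKO effect differed between Purkinje-like and interneuron-like cells, by a test of the difference itself, for 2 of the genes listed for description. Over all genes 36 of 10134 (0.355%) were called. For Chl1, an L1-family adhesion gene, the Purkinje-like effect exceeded the interneuron-like effect by 1.22 on the log2 scale (SE 0.27, edgeR quasi-likelihood adjusted p 0.00332), with the limits given above. For En2, a targeted gene, the difference was 1.26 (SE 0.29, edgeR quasi-likelihood adjusted p 0.0107). En2 stood at 86.2 and 39.3 CPM in En1/2 CKO Purkinje-like cells, against 115 and 51.6 CPM in controls, and at 36.0 and 24.3 CPM in En1/2 CKO interneuron-like cells, against 128 and 106 CPM in controls. Both differences are given as values.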

How the results depend on the processing

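With all libraries in, 194 alternative log2 fold changes kept their direction and side of the threshold, 23 reversed and 2 newly passed. With 1 library left out, 64 of 87 kept both, 13 reversed and 10 newly passed. The number of members called held in 50 of the alternatives with all libraries and moved in 2, and it moved in 7 of 20 with 1 library left out. With all libraries it was 1 in progenitor-like cells without the low-count filter and 1 for the difference between classes at Leiden resolution 2. All genes called in Purkinje-like cells numbered 22 without the filter, 8 under the stricter cell filter (1000 genes, 5% mitochondrial UMIs), 1 in cells of 2000 or more UMIs and 0 in thinned sums. In interneuron-like cells they numbered 2 with DESeq2 and 38 without the filter, in progenitor-like cells 2 and 109, and in granule lineage-like cells 1 and 21. For the difference between classes they numbered 6 under the stricter filter, 4 in cells of 2000 or more UMIs, 14 with doublets kept and 2 in thinned sums. The replicate block changed no member's call and gave 7 calls in Purkinje-like and also in progenitor-like cells, and 3 in interneuron-like cells; the crossed block gave 5 in Purkinje-like and 18 in interneuron-like cells.

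Leaving out 1 library gave 2 to 275 calls over all genes in Purkinje-like, 2 to 2174 in interneuron-like, 0 to 1857 in progenitor-like and 0 to 1470 in granule lineage-like cells, and 2 to 124 for the difference between classes. Members called ranged over 0 to 0, 0 to 3, 0 to 2, 0 to 1 and 0 to 1 in that order.

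These log2 fold changes reversed, and the cause was not tested. In Purkinje-like cells Cntn1 was 0.062 with doublets kept and -0.60 to 0.084 with 1 library left out, and Cntn4 was -0.48 to 0.61 with 1 left out. Cntn5 was -0.038 with the replicate block, -1.02 under the stricter filter, -0.38 in cells of 2000 or more UMIs, -0.055 with doublets kept, -0.56 in thinned sums and -0.40 to 0.74 with 1 library left out. Cntnap4 was -0.61 under the stricter filter, -0.40 in cells of 2000 or more UMIs and -0.051 in cluster 7 alone, and Cntn2 was -0.10 in cluster 12 alone. In interneuron-like cells Cntn1 was -0.033 with the crossed block, -0.10 under the stricter filter, -0.53 in thinned sums, -0.20 in cluster 10 alone and -0.30 to 0.24 with 1 library left out, and Cntnap2 was -1.07 to 0.64. In progenitor-like cells Cntn2 was -0.0082 with family genes in the clustering, and Cntn1 was -0.93 to 0.48 with 1 library left out. Cntnap2 there was -0.18 under the stricter filter, -0.27 in cells of 2000 or more UMIs, -0.32 in thinned sums, -0.25 at Leiden resolution 2, -0.15 with family genes in the clustering and -0.55 to 1.17 with 1 library left out. In granule lineage-like cells Cntn1 was -1.37 to 0.42. For the difference between classes Cntn2 was 0.094 under the stricter filter, 0.43 in cells of 2000 or more UMIs and -0.995 to 0.113 with 1 library left out, Cntn1 was -0.42 to 0.13, and Cntn5 was 0.69 in cells of 2000 or more UMIs.

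Mean levels moved beyond 1 SD under the stricter filter, to 17.6 CPM for Purkinje-like Cntn1 and to 18.1, 1.956 and 2.68 CPM for interneuron-like Cntn1, Cntn4 and Cntnap4, and at Leiden resolution 2 to 19.5 and 4.44 CPM for interneuron-like Cntn1 and Cntn4. In cells of 2000 or more UMIs, chosen for levels after seeing the data as were thinned sums, they moved to 22.6 CPM for Purkinje-like Cntn4 and to 15.996 and 4.20 CPM for interneuron-like Cntn1 and Cntnap4. In thinned sums they moved to 19.3 and 29.01 CPM for Purkinje-like Cntn1 and Cntnap4 and to 1.47 CPM for interneuron-like Cntn4. Thinning moved the mean share of Purkinje-like cells with a UMI to 5.72% for Cntn2, 10.1% for Cntn5, 3.88% for Cntnap2 and 5.52% for Cntnap4, and of interneuron-like cells to 2.29%, 0.368%, 1.17% and 1.13% for Cntn1, Cntn4, Cntnap2 and Cntnap4. Depth limits the values of control replicate 2 most.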

Other observations

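After thinning to 1000 UMIs, at least 1 of the 6 genes had a UMI in 30.3% and 31.2% of En1/2 CKO Purkinje-like cells, against 29.3% and 18.2% of control Purkinje-like cells, the last from 22 cells. In interneuron-like cells the shares were 26.2% and 30.6% in En1/2 CKO libraries, against 20.1% and 11.2% in controls. These shares were not tested.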
